A study of Homo sapiens with 8 samples.

Results

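The promoters of MYC and PVT1, neighbours on the long arm of chromosome 8, were examined for histone H3 trimethylated at lysine 4 (H3K4me3) in MM1S, an established human multiple myeloma cell line. The measurements came from chromatin immunoprecipitation sequencing (ChIP-seq). There were 3 KDM5-C70 libraries, treated at 50 uM over 7 days, and 5 libraries of vehicle (DMSO) control cells, whose treatment time the labels leave out. All 8 libraries used the same cell line and the same antibody lot. The labels do not say whether the libraries came from separate cultures, so the p-values measure only the spread between these libraries, which may be technical. The 2 genes were taken at their GRCh37 transcription start sites, MYC at position 128748315 and PVT1 at position 128806779 of chromosome 8, each with a window of 5 kb on either side. Every called region from 128000000 to 129800000, an interval of 1.8 Mb around both genes, was described with them. MYC was chosen by its called width. Averaged over the 8 libraries its region was the widest of 50523 merged regions, at 3890 bp, and the next widest, on chromosome 10 from 104401671 to 104406184, averaged 3690 bp. That rank is how the gene was chosen and is not a finding. PVT1 was taken by its position and ranked 101 by the same measure, at 2765 bp. The interval held 34 of the 50523 merged regions, and its 2 promoters were the regions of the interval called in all 8 libraries.

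MYC encodes a transcription factor that pairs with MAX and drives genes for growth, ribosome production and the cell cycle, and it is a central oncogene of multiple myeloma. In MM1S, as in many myeloma lines, the MYC locus is rearranged with immunoglobulin sequence, which positions on the reference genome do not show. PVT1 is a gene for a long noncoding RNA just downstream of MYC. It is transcribed in the same direction, and its promoter is known to compete with that of MYC for nearby enhancers in human cells. H3K4me3 marks active promoters, usually as nucleosomes on both sides of a start site, and wide stretches of the mark are known from highly transcribed and cell identity genes. KDM5 demethylases remove the mark, and KDM5-C70 inhibits them. RefSeq's gene table, which is of GRCh38.p14 and was used for names and order only, lists POU5F1B and the long noncoding RNA gene CASC11 before MYC, and PVT1 as the next gene after it, with the microRNA genes MIR1204, MIR1205, MIR1206 and MIR1207 following the start of PVT1. Called regions other than the promoters are given by position and not assigned to a gene. The cell type was not checked at plasma cell marker promoters, since no gene positions of the files' build other than these start sites were used.

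For each library the authors deposited a list of called regions. A called region can hold inner segments, narrower blocks listed with it. Called bases and inner bases are counted here per library, and the inner share is the inner bases as a percent of the called bases. The lists held 17977 to 37948 regions in KDM5-C70 libraries and 15323 to 32376 in DMSO libraries. The depth of the libraries is unknown, and a stretch outside a list may still carry the mark. By the overlap of their lists the libraries fell into 2 sets that do not follow treatment. KDM5-C70 1, DMSO 1 and DMSO 2 had the shorter lists, of at most 20998 regions, and KDM5-C70 2 and 3 with DMSO 3, 4 and 5 had the longer ones, of at least 28195. The sets were recognised from the data and no label explains them. The DMSO 3 list also held 7 regions on contigs with Drosophila names, which no other list had and which were not used. Differences are given over all libraries and, beside these, with the labels permuted within the sets (smallest possible p 0.0667). Because the sets came from the same called bases, the values within the sets serve as a description.

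At MYC the called widths of treated and control cells overlapped. The libraries with shorter lists, KDM5-C70 1, DMSO 1 and DMSO 2, had the lowest values, and KDM5-C70 1 was the lowest of them. MYC had 2489, 4132 and 4683 called bp in KDM5-C70 1 to 3, against 3834, 3392, 4286, 4128 and 4179 bp in DMSO 1 to 5. The lowest and the highest of the 8 values were both from treated cells, so the groups overlapped on both sides. The KDM5-C70 mean was 3768 ± 1141 bp (SD, n = 3) and the DMSO mean 3964 ± 361 bp (SD, n = 5), a difference of -196 bp that was smaller than the spread (2-sided exact permutation p = 0.679, adjusted p = 0.824 over 15 such tests, smallest possible p 0.0357). Within the sets it was -235 bp (exact permutation p = 0.533). Without KDM5-C70 1 the difference turned to 444 bp (exact permutation p = 0.286). Leaving out that library shifted other regions the same way. In the limma fit of log2 called width described further on, the median of all regions was 0.37 without it and 0.14 with it, and the MYC region had 0.16 without it and -0.12 with it, below the median in both fits. Within the longer lists KDM5-C70 2 and 3 averaged 4408 bp and DMSO 3, 4 and 5 averaged 4198 bp, while among the shorter lists KDM5-C70 1 had 2489 bp and DMSO 1 and 2 averaged 3613 bp. As a part of each list the picture was different. Per Mb of called sequence in the list MYC had 162, 126 and 128 called bp in KDM5-C70 1 to 3, against 215, 263, 133, 149 and 152 in DMSO 1 to 5. Here the treated values lay below the control values within both sets, as they did in 8.49% of the 13729 regions called in every library, and overlapped over all libraries (difference -43.6, exact permutation p = 0.286). The KDM5-C70 lists also held up to 36.7 Mb of called sequence and the DMSO lists up to 32.3 Mb, which enters this scale.

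**Figure D1:**
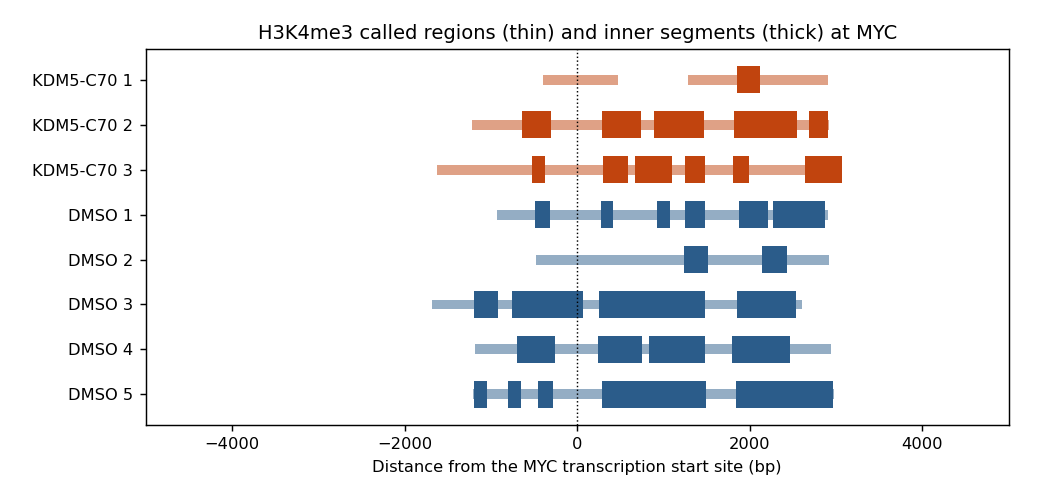
Called regions (thin bars) and inner segments (thick bars) of each library around MYC, by distance from its transcription start site in bp, with KDM5-C70 libraries above DMSO libraries. In KDM5-C70 1 the called stretch is split, and in the other 7 libraries it is unbroken and ends between 2603 and 3062 bp downstream.

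The mark lay mostly downstream of the MYC start site, over the beginning of the gene. Of the called bases, 84.2, 70.5 and 65.4% were downstream in KDM5-C70 1 to 3, against 75.7, 86.1, 60.8, 71.3 and 71.1% in DMSO 1 to 5. By the outermost called bases of the window, a measure chosen after seeing the data, the upstream end was the more variable one. It lay 394, 1218 and 1620 bp before the start site in KDM5-C70 1 to 3, against 933, 473, 1682, 1184 and 1208 bp in DMSO 1 to 5. These upstream ends span 1288 bp, and the shorter lists gave the 3 closest to the start site. The last called base of the window lay 2908, 2913 and 3062 bp after the start site in KDM5-C70 1 to 3, against 2900, 2918, 2603, 2943 and 2970 bp in DMSO 1 to 5, a span of 459 bp. Neither end separated the groups. The upstream end differed by 18.7 bp between the group means (exact permutation p = 0.893, and 62.3 bp with p = 0.6 within the sets). The downstream end of the stretch over the start site ranged more widely, from 472 to 3062 bp. It differed by -718 bp (exact permutation p = 0.643, and -713 bp with p = 0.533 within the sets). The value at the downstream end rests on the split region of KDM5-C70 1, whose first part ended 472 bp after the start site, and without that library the difference turned to 121 bp.

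KDM5-C70 1 was the one library with a break in the MYC region. Its first part ran from 394 bp before to 472 bp after the start site and its second part began 1287 bp after it, and the called stretch was unbroken in the other 7. Bases called in at least 7 libraries ran without a gap from 473 bp before to 2900 bp after the start site, 3374 bp in all. The called footprint of KDM5-C70 2 was closest to those of DMSO 4 and 5. Its Jaccard index, the bases called in both libraries over those called in either, was 0.985 with DMSO 4, 0.984 with DMSO 5, 0.928 with DMSO 1, 0.832 with DMSO 3 and 0.819 with DMSO 2, and 0.882 and 0.602 with KDM5-C70 3 and 1. DMSO 4 and 5 had 0.988 with each other.

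Inner bases at MYC were fewer with KDM5-C70 on average, with wide overlap. MYC had 260, 2311 and 1701 inner bp in KDM5-C70 1 to 3, against 1639, 565, 3024, 2272 and 2804 bp in DMSO 1 to 5. The lowest value was KDM5-C70 1 and the highest DMSO 3, while KDM5-C70 2 lay above DMSO 4. All libraries with shorter lists were below all those with longer lists. The KDM5-C70 mean was 1424 ± 1053 bp (SD, n = 3) and the DMSO mean 2061 ± 992 bp (SD, n = 5), a difference of -637 bp (exact permutation p = 0.429, and -743 bp with p = 0.133 within the sets). It was -54.8 bp without KDM5-C70 1. The longest single inner segment had 260, 727 and 434 bp in KDM5-C70 1 to 3, against 597, 285, 1230, 671 and 1207 bp in DMSO 1 to 5, and the groups overlapped there too. The inner share was 10.4, 55.9 and 36.3% in KDM5-C70 1 to 3, against 42.7, 16.7, 70.6, 55.0 and 67.1% in DMSO 1 to 5, with a difference of -16.2 percentage points between the means (exact permutation p = 0.357, and -18.5 with p = 0.133 within the sets). Again KDM5-C70 2, at 55.9%, exceeded DMSO 4, at 55.0%. Over whole lists the inner share was 56.5 to 58.4% in KDM5-C70 libraries and 68.2 to 76.3% in DMSO libraries, so the share of the MYC window moved in the same direction as that of the lists. Without KDM5-C70 1 the difference in MYC was -4.29 percentage points.

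At MYC, some stretches held no inner segment in any library, treated or control. These ran from 66 to 241 bp and from 1519 to 1797 bp after the start site, gaps of 176 and 279 bp inside the called region. A further gap of 116 bp upstream ended at -799 bp, and KDM5-C70 1 and DMSO 2 had no called base in it. The start site itself was covered by an inner segment in 1 library, DMSO 3. At least 7 of the 8 libraries shared inner bases from 1249 to 1463 bp and from 1871 to 1988 bp after the start site, and no base was inner in all 8. Downstream of the start site lay 100, 85.5 and 91.4% of the inner bases in KDM5-C70 1 to 3, against 89.7, 100, 65.6, 80.6 and 83.0% in DMSO 1 to 5. The libraries with no inner base upstream were KDM5-C70 1 and DMSO 2, both with shorter lists. A stretch of 3 bp, from 1476 to 1478 bp after the start site, was inner in all 5 DMSO libraries and in no KDM5-C70 library, and no stretch was the reverse.

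Because MYC was chosen as the widest region, and the inner share divides by the called bases, its share against other regions is given as a description. The inner share of MYC minus that of the whole list was -48.0, -2.23 and -20.1 percentage points in KDM5-C70 1 to 3, against -25.5, -52.6, -5.70, -13.2 and -4.56 in DMSO 1 to 5, below 0 in 8 of 8 libraries. Among the 1361 regions called in every library with a mean width of at least 2 kb, the share of regions with a lower inner share than MYC was 1.18, 31.0 and 16.1% in KDM5-C70 1 to 3, against 4.34, 0.955, 22.6, 9.18 and 21.5% in DMSO 1 to 5. The ranks of MYC by inner bases were 12390, 31 and 762 in KDM5-C70 1 to 3, against 298, 7723, 11, 85 and 13 in DMSO 1 to 5. Its ranks by called bases were 110, 6 and 1 in KDM5-C70 1 to 3, against 11, 16, 13, 9 and 6 in DMSO 1 to 5.

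The authors' own values of fold and significance belong to each region in its own list and are not compared between lists. The fold enrichment of its widest called region was 2.66, 2.05 and 2.69 in KDM5-C70 1 to 3, and 1.25, 1.49, 2.61, 2.88 and 3.07 in DMSO 1 to 5. The -log10 q-value was 12.99, 2.38 and 2.43 in KDM5-C70 1 to 3, and 2.20, 5.47, 4.72, 5.94 and 7.08 in DMSO 1 to 5. In KDM5-C70 1, where the region is split, the value of its wider part exceeded that of 99.1% of its list. In the other 7 lists the region exceeded 13.1 to 63.0% of the regions by this value. The MYC region reached a -log10 q-value of 5 in 4 of the 8 libraries.

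At PVT1 the called stretch began shortly before the start site in every library and ran downstream for a length that differed between the sets of libraries. PVT1 had 1145, 3333 and 2993 called bp in KDM5-C70 1 to 3, against 1734, 602, 3692, 4306 and 4312 bp in DMSO 1 to 5. As at MYC, the 3 libraries with shorter lists were the 3 lowest. The KDM5-C70 mean was 2490 ± 1177 bp (SD, n = 3) and the DMSO mean 2929 ± 1676 bp (SD, n = 5), a difference of -439 bp within the spread (exact permutation p = 0.679). Among the libraries with longer lists both KDM5-C70 libraries were below all 3 DMSO libraries, at means of 3163 and 4103 bp, as in 7.61% of the regions called in all 5. Among those with shorter lists KDM5-C70 1 lay between DMSO 2 and DMSO 1. With labels permuted within the sets the difference was -635 bp (exact permutation p = 0.2). Without KDM5-C70 1 the pooled difference turned to 234 bp.

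**Figure D2:**
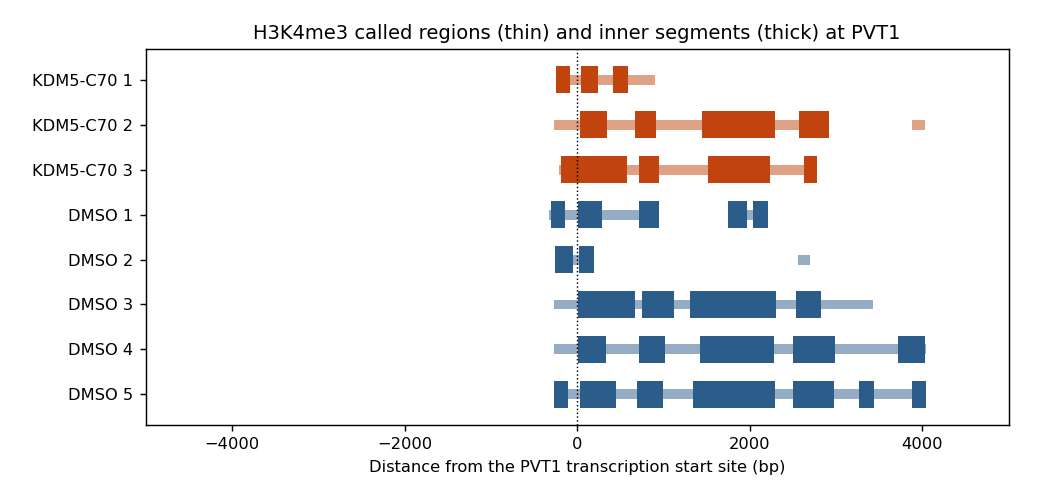
Called regions (thin bars) and inner segments (thick bars) of each library around PVT1, by distance from its transcription start site in bp, with KDM5-C70 libraries above DMSO libraries. All 8 begin 212 to 322 bp before the start site, and the stretch over it ends at 192 to 948 bp after the start site in the shorter lists and at 2780 to 4041 bp in the longer ones.

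The upstream end of PVT1 was the most constant end of either promoter. It lay 244, 266 and 212 bp before the start site in KDM5-C70 1 to 3, against 322, 261, 269, 269 and 270 bp in DMSO 1 to 5, a span of 110 bp over the 8 libraries. In 2 of the 3 treated libraries it was closer to the start site than in any control library, and KDM5-C70 2 lay between the controls. Within each set every treated library was closer than every control library, with a difference of 36.1 bp (exact permutation p = 0.0667 within the sets, the smallest possible). In the longer lists this rested on 266 bp in KDM5-C70 2 against 269 bp in the nearest controls. How often other regions separate in this way was not counted. The group means differed by 37.5 bp (exact permutation p = 0.0714, adjusted p = 0.824 over 15 tests), the smallest p of the family, which did not pass the threshold. The downstream end of the stretch over the start site lay at 900, 2920 and 2780 bp in KDM5-C70 1 to 3, against 948, 192, 3422, 4036 and 4041 bp in DMSO 1 to 5, a difference of -328 bp between the means (exact permutation p = 0.714, and -545 bp with p = 0.2 within the sets). From 2921 to 3422 bp after the start site, 502 bp were called in DMSO 3, 4 and 5 and in neither KDM5-C70 2 nor KDM5-C70 3. Beyond that stretch KDM5-C70 2 had a separate called region of 146 bp, the shortest length in any list, which ended 4023 bp after the start site.

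Inner bases at PVT1 were 510, 1770 and 1883 bp in KDM5-C70 1 to 3, against 1066, 382, 2311, 2289 and 2642 bp in DMSO 1 to 5. The groups overlapped, and within the longer lists both treated libraries were below the 3 controls, as in 25.8% of the 18907 regions with an inner segment in all 5. The KDM5-C70 mean was 1388 ± 762 bp (SD, n = 3) and the DMSO mean 1738 ± 967 bp (SD, n = 5) (exact permutation p = 0.607, and a difference of -463 bp with p = 0.133 within the sets). The inner share of PVT1 was 44.5, 53.1 and 62.9% in KDM5-C70 1 to 3, against 61.5, 63.5, 62.6, 53.2 and 61.3% in DMSO 1 to 5. The difference between the means was -6.87 percentage points (exact permutation p = 0.286, and -6.64 with p = 0.4 within the sets). KDM5-C70 1 gave the lowest share, and KDM5-C70 3 exceeded 4 of the 5 DMSO libraries.

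At PVT1 a segment from 49 to 188 bp after the start site, 140 bp long, was inner in all 8 libraries, whereas MYC had no such base. In all 5 libraries with longer lists 724 bp from 1511 to 2234 bp after the start site were inner. Gaps from 1122 to 1300 bp and from 2298 to 2494 bp after the start site held no inner segment in any library, treated or control. The libraries with shorter lists had no called base there, so these gaps rest on the longer lists. The PVT1 start site was inside an inner segment in 1 library, KDM5-C70 3. Downstream of it lay 69.2, 100 and 89.9% of the inner bases in KDM5-C70 1 to 3, against 84.6, 45.3, 100, 100 and 93.8% in DMSO 1 to 5. The 3 libraries with shorter lists had the 3 lowest of these values. All 3 also had inner bases from -243 to -142 bp, upstream of the start site.

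Pairs of libraries overlapped less at PVT1 than at MYC when their lists were from different sets. The Jaccard index of called bases in the PVT1 window was 0.999 between DMSO 4 and 5 and 0.898 between KDM5-C70 2 and 3. Within a treatment group and across the sets it ranged from 0.140 to 0.449 at PVT1, against 0.531 to 0.929 at MYC. The authors' fold enrichment of the widest PVT1 region was 1.63, 2.32 and 2.14 in KDM5-C70 1 to 3, and 1.32, 1.11, 2.61, 2.09 and 1.91 in DMSO 1 to 5. Its -log10 q-value was 3.40, 3.22 and 1.28 in KDM5-C70 1 to 3, and 2.47, 0.87, 10.4, 1.91 and 2.21 in DMSO 1 to 5. It reached 5 in 1 library, DMSO 3. As at MYC, these values describe a region within its own list.

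**Figure D3:**
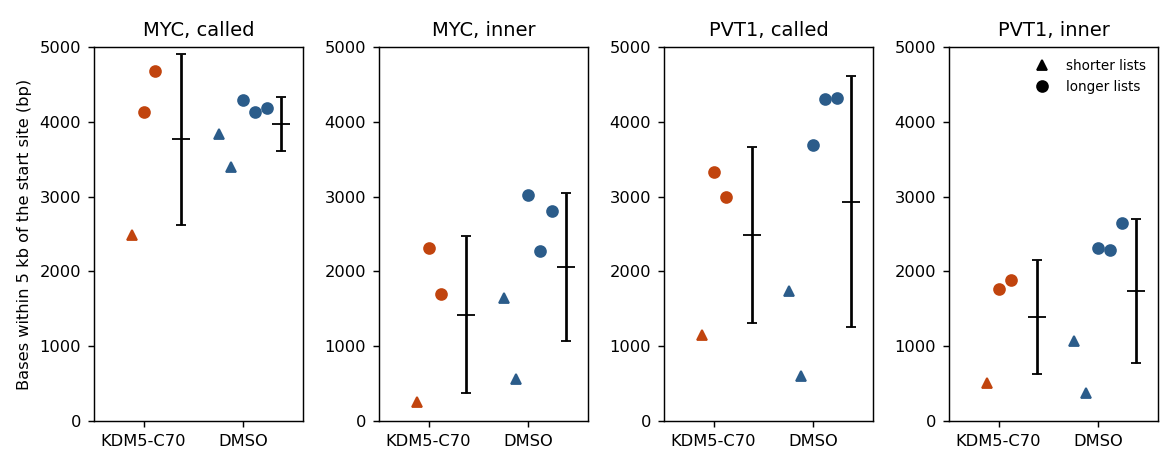
Called and inner bases (bp) within 5 kb of the MYC and PVT1 start sites, 1 point per library, with KDM5-C70 left of DMSO in each panel; triangles are the shorter and circles the longer lists, and the bar beside each group is its mean ± SD. In every panel the groups overlap, and all triangles lie below all circles.

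The place of PVT1 among all regions ranged from near the top of a list to well down it. Ranked by the width of single called regions in a list, the widest region of its window was number 4794, 158 and 294 in KDM5-C70 1 to 3, against 4398, 11898, 54, 5 and 2 in DMSO 1 to 5. For MYC these ranks were 1413, 4 and 1 in KDM5-C70 1 to 3, against 10, 15, 12, 8 and 6 in DMSO 1 to 5. In DMSO 4 and 5 the PVT1 region, with 4306 and 4312 bp, was wider than that of MYC, with 4128 and 4179 bp. In the 3 KDM5-C70 libraries and in DMSO 1, 2 and 3 it was narrower. The log2 ratio of MYC to PVT1 called bases, a direct comparison of the response of both promoters, averaged 0.69 ± 0.41 in treated cells (SD, n = 3) and 0.75 ± 1.09 in control cells (SD, n = 5). Its difference of -0.06 was within the spread (exact permutation p = 1), and it was 0.06 within the sets (exact permutation p = 0.8).

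Across the whole table neither promoter was among changed regions. The log2 called bases of the 13729 merged regions called in all 8 libraries were fitted with limma, and 0 regions, or 0% of those tested, had an adjusted p under 0.05 (242 at an unadjusted p under 0.05). The log2 change of KDM5-C70 over DMSO was -0.12 (SE 0.20) for the MYC region, from 128746633 to 128751377 (limma adjusted p = 0.994), and -0.06 (SE 0.64) for the PVT1 region, from 128806457 to 128810820 (limma adjusted p = 0.998). The median of all regions was 0.14. With each library centred on its median width the median of all regions was -0.02, and MYC and PVT1 had -0.28 and -0.22 on the log2 scale (limma adjusted p = 0.703 for MYC and 0.943 for PVT1). Uncentred, 13.6% of regions had a lower change than MYC and 18.3% a lower change than PVT1. The groups did not overlap in 0.954% of the regions with wider values under KDM5-C70 and in 0.605% with narrower values, and 0 of the 2 promoters were among them.

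For inner bases, 12816 regions had an inner segment in every library. With limma again 0 of them, or 0%, passed the adjusted threshold (465 at an unadjusted p under 0.05, 0 of those wider). This direction depends on the scale. With each library centred on its median, 1443 regions had an unadjusted p under 0.05, 496 of them wider, and 22 passed the adjusted threshold. With a term for the sets as well these numbers were 2497, 1080 and 211. The log2 change was -0.82 (SE 0.68) for MYC and -0.25 (SE 0.61) for PVT1 (limma adjusted p = 1.00 for both), against a median of -0.07. A lower change than that of MYC was found in 3.32% of regions. Without KDM5-C70 1 the value of MYC turned to 0.16 and that of PVT1 to 0.37, while the median of all regions was 0.18. Groups did not overlap in 0.0234% of regions with wider and 2.08% with narrower inner values under KDM5-C70, and neither promoter was among them.

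**Figure D4:**
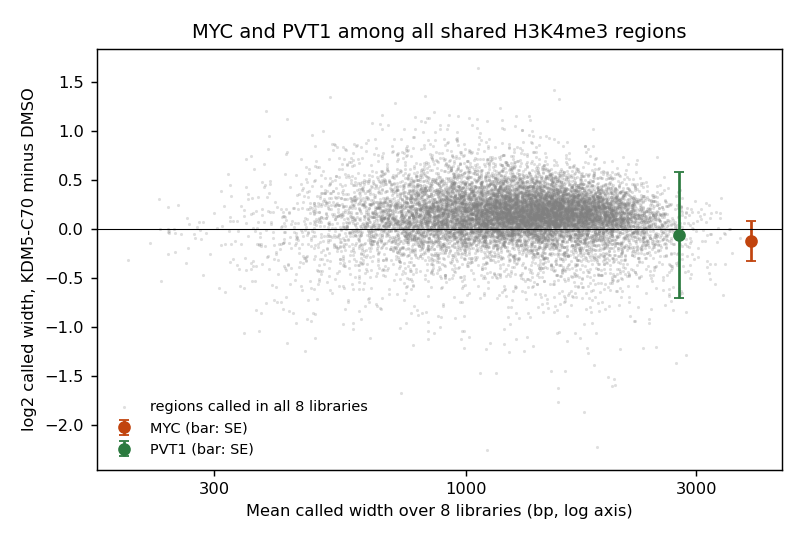
Mean called width over the 8 libraries (bp, log axis) against the log2 difference in called width, KDM5-C70 minus DMSO, for the 13729 regions called in every library (grey points), with MYC and PVT1 and their SE. MYC, at -0.12, and PVT1, at -0.06, lie within 1 SE of 0 and below the median of all regions, 0.14.

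Within the 5 libraries with longer lists, the called width of KDM5-C70 2 and 3 was above that of DMSO 3, 4 and 5 in 35.0% of 22537 regions called in all 5, and below it in 7.61%. PVT1 was one of the narrower regions, with 3333 and 2993 bp in KDM5-C70 2 and 3 against 3692 to 4312 bp in DMSO 3, 4 and 5. MYC was in neither class, with 4132 and 4683 bp against 4128 to 4286 bp. No p is given for this contrast, because the sets were recognised from the data, a limit that the p-values within the sets share.

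With each library centred on its median, the pattern of MYC over the libraries was unlike that of PVT1. On that scale Pearson's r between their log2 called widths was -0.47 over the 8 libraries. Uncentred, both promoters had their lowest called widths in the libraries with shorter lists, so the unlikeness holds for the centred scale only. The regions most like MYC lay on chromosome 19 from 2327832 to 2329673 (r = 0.984), on chromosome 10 from 134120513 to 134122467 (r = 0.983) and on chromosome 2 from 232573377 to 232576056 (r = 0.974). Those most like PVT1 lay on chromosome X from 46988311 to 46989636 (r = 0.982), on chromosome 22 from 29467416 to 29469528 (r = 0.981) and on chromosome 7 from 149438812 to 149439888 (r = 0.978). These are descriptions over 8 libraries, picked as the highest of 13728 regions, and the points share the length of their lists. For MYC 87 regions had an r above 0.9, and for PVT1 145.

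Around the promoters the number of called regions followed the sets of libraries. The interval held 4, 23 and 27 called regions in KDM5-C70 1 to 3, against 7, 3, 19, 19 and 15 in DMSO 1 to 5. KDM5-C70 2 and 3 had the most, and KDM5-C70 1 and DMSO 2 the fewest. The KDM5-C70 mean was 18 ± 12.3 (SD, n = 3) and the DMSO mean 12.6 ± 7.27 (SD, n = 5), a difference of 5.4 within the spread (exact permutation p = 0.393, and 4.56 with p = 0.133 within the sets). Called bases in the interval were 3780, 18781 and 28962 in KDM5-C70 1 to 3, against 6678, 3994, 19036, 18985 and 17207 in DMSO 1 to 5 (exact permutation p = 0.714). Over all libraries the difference was 3994 bp, within the sets it was 3123 bp (exact permutation p = 0.667), and without KDM5-C70 3 it was -1900 bp. Per Mb of called sequence in the list the interval held 246, 574 and 790 called bp in KDM5-C70 1 to 3, against 374, 310, 590, 684 and 624.9 in DMSO 1 to 5, so it took a smaller part of the shorter lists too.

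The MYC and PVT1 windows made up nearly all of the called sequence of the interval in the shorter lists. Their part was 96.1% in KDM5-C70 1, against 83.4 and 100% in DMSO 1 and 2. In the longer lists it was 39.7 and 26.5% in KDM5-C70 2 and 3, against 41.9, 44.4 and 49.3% in DMSO 3, 4 and 5. Outside the windows 146, 11316 and 21286 bp were called in KDM5-C70 1 to 3, against 1110, 0, 11058, 10551 and 8716 bp in DMSO 1 to 5 (exact permutation p = 0.393, and 3992 bp with p = 0.267 within the sets). Without KDM5-C70 3 the difference of 4629 bp turned to -556 bp. The inner share of the interval was 20.4, 40.5 and 40.6% in KDM5-C70 1 to 3, against 44.998, 23.7, 60.2, 48.8 and 54.3% in DMSO 1 to 5. It was lower in treated cells within both sets, with a difference of -13.9 percentage points (exact permutation within sets p = 0.0667, the smallest possible), and -12.6 over all libraries (exact permutation p = 0.214). The inner share of whole lists moved the same way, and its part in this result was not tested.

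**Figure D5:**
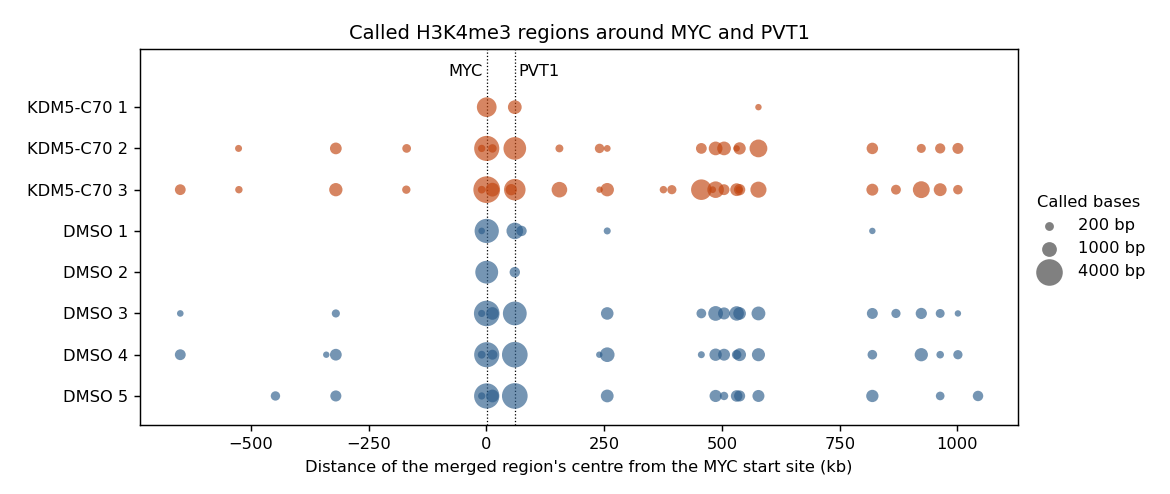
Called regions of each library in the 1.8 Mb interval, by the distance of the merged region's centre from the MYC start site in kb, with KDM5-C70 libraries above DMSO libraries and point area growing with the called bases. KDM5-C70 1, DMSO 1 and DMSO 2 have little outside MYC and PVT1, and the other 5 libraries share regions 486.6 to 577.5 kb downstream.

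Close to MYC, 2 further regions were shared by the longer lists. The region from 128738148 to 128738558, about 10.0 kb upstream of the start site, had 0, 230 and 267 called bp in KDM5-C70 1 to 3, against 163, 0, 212, 282 and 223 bp in DMSO 1 to 5. The region from 128760373 to 128761803, 12.8 kb downstream, had 0, 355 and 1153 bp in KDM5-C70 1 to 3, against 0, 0, 951, 540 and 969 bp in DMSO 1 to 5. Treated and control values overlapped in both. Between this region and PVT1 the only called region, from 128800711 to 128801440, was in KDM5-C70 3, with 730 bp.

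Farther out, regions of at least 4 libraries lay mostly downstream of PVT1. Centred at -319.6 kb from the MYC start site, the region from 128428218 to 128429295 had 800 and 1063 bp in KDM5-C70 2 and 3, against 316, 802 and 695 bp in DMSO 3, 4 and 5, and was not called in the shorter lists. Centred 256.5 kb downstream of the MYC start site, the region from 129003828 to 129005816 had 179 and 1082 bp in KDM5-C70 2 and 3, against 201, 936, 1319 and 974 bp in DMSO 1, 3, 4 and 5. A group of 6 regions of this kind lay 456.3 to 577.5 kb downstream of the MYC start site, from 129203241 to 129326939. The last of these, from 129324736 to 129326939, had 146, 2006 and 1619 bp in KDM5-C70 1 to 3, against 0, 0, 1160, 1025 and 841 bp in DMSO 1 to 5. It was wider with KDM5-C70 within both sets, while the pooled groups overlapped because of the 146 bp of KDM5-C70 1. In the shorter lists this rested on those 146 bp, the shortest length in any list. In the longer lists 35.0% of the regions called in all 5 libraries were wider in this way. The share of regions wider within both sets was not counted. The region from 129203241 to 129206066 had 653 and 2720 bp in KDM5-C70 2 and 3, against 507, 196 and 0 bp in DMSO 3, 4 and 5. The regions between these, from 129233856 to 129286461, overlapped between the groups also within the longer lists. Farthest downstream, the regions from 129711068 to 129712133 (570 and 994 bp against 405, 255 and 376 bp in the same order of libraries) and from 129748911 to 129749595 (685 and 479 bp against 146, 446 and 0 bp) were wider in KDM5-C70 2 and 3. Those from 129567104 to 129568047 and from 129670611 to 129672399 overlapped. The wider regions that start at 129203241 and 129748911 were not called in DMSO 5, so the 35.0% does not cover them. How often such regions separate over all chromosomes was not counted.

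Over the 34 merged regions of the interval, the groups were separated in 0 across all 8 libraries. Apart from MYC, PVT1 and the region from 129324736 to 129326939, the regions were absent from the KDM5-C70 1 and DMSO 2 lists. Such a region cannot separate the groups, so this count is no measure of a response. Of the 13 regions called in all 5 libraries with longer lists, 2 were wider and 1, PVT1, was narrower in KDM5-C70 2 and 3. The share of wider regions was not above the 35.0% found over all chromosomes. A further 14 regions were called in 1 library, 7 of them in KDM5-C70 3, which had the longest list. In no DMSO library but in KDM5-C70 2 and 3 were the regions from 128902544 to 128904054, with 292 and 1511 bp, and from 128988272 to 128988827, with 468 and 152 bp, and KDM5-C70 1 had neither. The share of regions over all chromosomes with this pattern was not counted, so these 2 are given as a description. Regions found in all 3 KDM5-C70 libraries were each called in at least 3 DMSO libraries too.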

How the data were processed

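H3K4me3 ChIP-seq of 3 KDM5-C70 and 5 DMSO libraries was used. Trim Galore 0.40, Bowtie 1.1.2, MACS2 2.1.0, HOMER 4.8 and GRCh37 are named in the submitters' processing notes. No settings or control library are stated. Each library's deposited list gives positions and inner blocks in bp. It also carries, as deposited by the authors, a score for display, the region's fold (ratio) and its significance as -log10 p-value and -log10 q-value. What the fold is relative to is not stated.

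Regions on chromosomes 1 to 22 and X were read. Blocks of 1 bp were left out of inner segments. Lists were joined where they overlapped by at least 1 bp. Values per library were compared by 2-sided exact permutation over 56 arrangements (smaller tail doubled), with Benjamini-Hochberg adjustment over 15 tests. All regions were fitted with limma 3.58.1 in R 4.3.3 (variance trend, Benjamini-Hochberg, threshold 0.05). Other steps ran in Python 3.11.15 (scipy 1.17.1, numpy 2.4.6, matplotlib 3.10.9, pandas 2.3.3). The interval steps and the limma step were tested on simulated data. Sets of libraries came from average-linkage clustering of the Jaccard index of all called bases. Named regions were those of the interval called in at least 4 libraries or with separated groups, and the 3 regions most like each promoter. Other regions of the interval named here were chosen after their values were seen. The genes, regions and lists were chosen with earlier results of these data known. Lists of MYC network genes and cell type markers were not used, since the gene table is of another build.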

Additional observations from a re-analysis of the deposited data

Results flagged for a closer look

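The search for a single library that stands apart was run on the 5 DMSO values of each of 15 measures, where chance marks about 5% of groups. It marked 3. The called stretch at MYC ended 2603 bp after the start site in DMSO 3, while it ended at 2900 to 2970 bp in the other DMSO libraries. The inner share of the PVT1 window was 53.2% in DMSO 4, against 61.3 to 63.5% in the others. The called stretch at PVT1 began at -322 bp from the start site in DMSO 1, against -261 to -270 bp in the others.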

How the results depend on the processing

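Of 321 recomputed values of 21 results, 276 kept their direction and their side of the threshold (counts of regions: stayed within 1.5 times), and 38 changed direction. No difference between values per library passed the adjusted threshold as reported, so a changed direction is that of a difference within the spread. The cause was not tested. Values are KDM5-C70 minus DMSO, in bp unless said.

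With a -log10 q-value of at least 5 PVT1 was left with 1 library a group, KDM5-C70 2 with its separate 146 bp region and DMSO 3 with 3692 bp, so the 601 of its downstream edge does not compare stretches over the start site. Interval called bases differed by -2793, those outside both windows by -594 and interval regions by -0.33 regions. With the widest regions of lists of equal length, interval regions differed by -0.067 regions. A 2 kb window gave 117 for PVT1 called bases and 205 for its downstream edge. Within the sets, the log2 ratio of MYC to PVT1 differed by 0.061. The outermost called base, chosen after seeing the data, gave 94.2 for the MYC downstream edge.

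Leaving out 1 library, the ranges were -653 to 444 for MYC called bases, -323 to 290 for its upstream and -1174 to 121 for its downstream edge, -1021 to 234 for PVT1 called bases, -689 to 88.5 for its inner bases and -912 to 322 for its downstream edge. They were -0.27 to 0.38 (log2) for MYC against PVT1, -1900 to 10692 for interval called bases and -556 to 10014 outside both windows. For limma they were -0.30 to 0.16 (MYC) and -0.55 to 0.43 (PVT1) for called and -1.42 to 0.16 (MYC) and -0.72 to 0.37 (PVT1) for inner log2 width. Most upper ends came without KDM5-C70 1. The ratio of MYC to PVT1 was highest without DMSO 2.

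Whether the replicate numbers pair the libraries is unknown. Same-numbered correlations were 0.37, -0.31 and 0.32. Their sign followed the sets of libraries, so they cannot decide it. The names inside the lists titled DMSO 3, 4 and 5 carry the numbers 4, 5 and 6, so the third pair and the block values rest on doubtful numbers. With a replicate block the MYC upstream edge differed by -48, PVT1 called bases by 481, inner bases by 135 and downstream edge by 679, and the PVT1 log2 width by 0.52 (called) and 0.28 (inner). The block called 10 regions by called width.

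Over all regions limma called 0 as reported. By called width it called 27 with a term for the sets and centring, and 1 of 10 testable regions at the stricter q-value. By inner width it called 22 with centring, 211 with the sets and centring, 1 at the stricter q-value, and 0 to 1 leaving out 1 library. The promoters' adjusted p stayed at 0.177 or above with the sets and centring.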
